A study of Mus musculus with 9 samples.

Results

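The Bcl2 family holds the proteins that decide whether the outer mitochondrial membrane is opened during apoptosis. Here 10 of its genes were followed by symbol through the bulk RNA-seq of MC38 cells: 3 that protect the cell (Bcl2, Bcl2l1 and Mcl1) and 7 that promote death (Bax, Bak1, Bcl2l11, Bid, Bbc3, Bad and Pmaip1). Each symbol matched 1 of the 16399 genes listed, and all 10 were among the 11287 genes that reached 1 TPM (a transcript level scaled to transcript length and to a fixed total per library) in at least 3 libraries.

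MC38-P is the parental line, a colon carcinoma line of C57BL/6 mice that carries a GFP and luciferase reporter. MC38-LM3a and MC38-LM3b are third-generation derivatives of it that the study calls independently derived. For the earlier generations the study names only MC38-LM1 and MC38-LM2. Its text does not say whether both derivatives came from these, so they may share earlier rounds of selection. Cells were injected into the spleen of immunocompetent mice, recovered from liver metastases and expanded in culture, for 3 rounds. Each derivative is therefore a single selected line, and both were selected in the same way. Poly(A) RNA of cultured cells was sequenced in 3 replicates per line, 9 libraries in all. The labels call the cells colon epithelial cells. Krt8 and Krt18, keratins of simple epithelia, were at 744 to 1206 TPM and 707 to 981 TPM. The 10 epithelial markers listed summed to 2003.72 to 2318.5 TPM in MC38-P, above the derivatives (1592.21 to 1811.89 TPM for MC38-LM3a and 1584.52 to 1629.44 TPM for MC38-LM3b). Krt8 and Krt18 made up most of this sum. Epcam was at 4.93 to 6.31 TPM in MC38-P and 1.87 to 2.4 TPM in the derivatives, and Cdx2 at 1.8 to 2.86 and 0.28 to 0.92 TPM. Krt19 of that list went the other way in MC38-LM3a, at 135.74 to 156.89 TPM against 105.08 to 121.84 TPM in MC38-P. In MC38-LM3b Krt19 was at 106.54 to 109.25 TPM. Krt20 was also higher in MC38-LM3a, at 1.21 to 1.83 TPM against 0.54 to 0.79 TPM in MC38-P, and MC38-LM3b had 0.69 to 1.64 TPM. Cdh1 (E-cadherin) did not exceed 0.08 TPM, and Cldn7 and Vil1 were close to 0. The leukocyte marker Ptprc did not exceed 0.09 TPM and the hepatocyte marker Alb did not exceed 0.29 TPM, whereas Apoa2 of the hepatocyte list was at 1.16 to 4.23 TPM. Markers of stellate cells and fibroblasts (4 of 7 listed reached 1 TPM, with Dcn at or under 0.13 TPM) summed to 139.71 to 176.25 TPM in MC38-P, while MC38-LM3a had 55.32 to 74.68 TPM and MC38-LM3b 67.16 to 73.34 TPM. Most of that sum was Col3a1, at 122.84 to 154.16 TPM in MC38-P and 48.58 to 64.81 TPM in the derivatives, whereas Pdgfrb of the same list did not exceed 1.74 TPM in MC38-P and was at 3.48 to 3.8 TPM in MC38-LM3b. The markers of macrophages (only Cd68 and Cd14 of 4 listed, with Csf1r at or under 0.14 TPM) summed to 38.82 to 40.15, 48.78 to 53.66 and 55.64 to 59.96 TPM, and the part of any of these lists in the results was not tested. As these are bulk measurements, a change in every cell and a change in the share of cells that express a gene cannot be told apart.

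Bax and Bak1 are the effectors that form pores in the membrane and let cytochrome c out. Bcl2, Bcl2l1 (Bcl-xL) and Mcl1 hold them in check. The BH3-only proteins tip this balance: Bcl2l11 (Bim), Bid and Bbc3 (Puma) can bind protectors and effectors, whereas Bad and Pmaip1 (Noxa) act by occupying protectors, Bad mainly Bcl2 and Bcl-xL and Noxa mainly Mcl1. Much of this control acts on the proteins, through cleavage of Bid, phosphorylation of Bad and rapid turnover of Mcl1, and transcript levels do not show it.

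Bcl2l1, Bak1, Bbc3 and Bax were the members that passed the test in at least 1 derivative, and the sequence before their transcription start is shown for that reason. RefSeq (GRCm38.p6) gave 15 windows of 250 bases for 9 of the members, with Pmaip1 not shown. The most upstream window of each gene is printed 5′ to 3′ on the gene's strand, and capitals mark a motif that was found in it. The window of Bcl2l1 lies at chr2:152831729-152831978 (minus strand) and holds no motif searched for, that of Bak1 at chr17:27028628-27028877 (minus strand) holds none either, that of Bbc3 at chr7:16309333-16309582 (plus strand) holds 5 GC boxes, of which 2 overlap, and that of Bax at chr7:45466899-45467148 (minus strand) holds 2 GC boxes, 1 E box and 1 p53 half-site. The bases that follow the start were found in a GENCODE M21 transcript of the gene for the windows of Bcl2l1, Bak1 and Bax, but for none of the 3 windows of Bbc3, so that its start rests on RefSeq alone here.
Bcl2l1: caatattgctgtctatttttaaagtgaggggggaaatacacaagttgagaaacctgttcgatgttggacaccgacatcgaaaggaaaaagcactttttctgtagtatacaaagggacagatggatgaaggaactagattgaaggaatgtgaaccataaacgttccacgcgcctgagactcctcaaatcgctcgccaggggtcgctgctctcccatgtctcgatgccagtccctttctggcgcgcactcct
Bak1: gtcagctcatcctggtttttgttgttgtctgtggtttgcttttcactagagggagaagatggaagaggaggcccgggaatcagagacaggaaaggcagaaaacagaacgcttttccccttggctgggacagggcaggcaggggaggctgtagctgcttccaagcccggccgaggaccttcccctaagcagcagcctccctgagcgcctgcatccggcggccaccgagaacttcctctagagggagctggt
Bbc3: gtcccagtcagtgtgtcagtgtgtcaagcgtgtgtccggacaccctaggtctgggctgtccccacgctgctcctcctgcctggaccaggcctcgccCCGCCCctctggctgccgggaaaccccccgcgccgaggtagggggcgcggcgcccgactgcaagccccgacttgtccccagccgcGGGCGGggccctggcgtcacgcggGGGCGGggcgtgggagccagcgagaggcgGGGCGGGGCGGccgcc
Bax: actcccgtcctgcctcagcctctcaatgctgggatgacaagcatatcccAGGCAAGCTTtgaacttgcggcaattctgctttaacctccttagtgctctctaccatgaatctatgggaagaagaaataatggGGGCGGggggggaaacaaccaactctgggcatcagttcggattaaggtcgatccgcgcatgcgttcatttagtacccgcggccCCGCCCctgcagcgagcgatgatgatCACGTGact

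Motifs were searched on both strands, and none of them contains another. The GC box (GGGCGG) was in 10 of the 15 windows, against 32.7% of all 32851 windows of this length in the table. The window of Bbc3 is 76.4% G and C, and those of Bcl2l1, Bax and Bak1 are 47.6%, 54% and 58.4%. The CCAAT box was in 4 windows (33.8% of all windows) and the E box (CACGTG) in 2 (6.02% of all). The p53 half-site was in 1 window (7.13% of all), in Bax, where it begins 201 bases before the start. No window held TATAAA (12.4% of all) or the GAS element TTCNNNGAA (7.02% of all), which says only that these letters were not in these windows.

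TPM is scaled to transcript length, and the levels of the members are set side by side on that scale. Some libraries still showed a trend along transcript length, which is described below and limits the comparison between members. Bax was the most abundant, with 322 ± 38.4 TPM for MC38-P, 382 ± 20.8 TPM for MC38-LM3a and 337 ± 9.02 TPM for MC38-LM3b (SD, n = 3). Its mean lay above 96.3% of the tested genes. Mcl1 came next, at 185 ± 12.3, 185 ± 14.5 and 211 ± 4.98 TPM in the same order of lines. Bak1 followed, at 98.7 ± 4.6, 119 ± 0.131 and 124 ± 2.17 TPM. Bad and Bcl2l1 stood in the middle of the family, Bid, Pmaip1, Bcl2l11 and Bbc3 below them, and Bcl2 was the lowest, above only 10.4% of the tested genes. This order held in all 3 lines but for Bad and Bcl2l1, whose libraries overlapped in both derivatives, and Bcl2l1 was the higher of them in MC38-LM3b. Pmaip1 and Bcl2l11 overlapped in MC38-P and in MC38-LM3a. All other neighbours in the order were separated in every line.

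**Figure D1:**
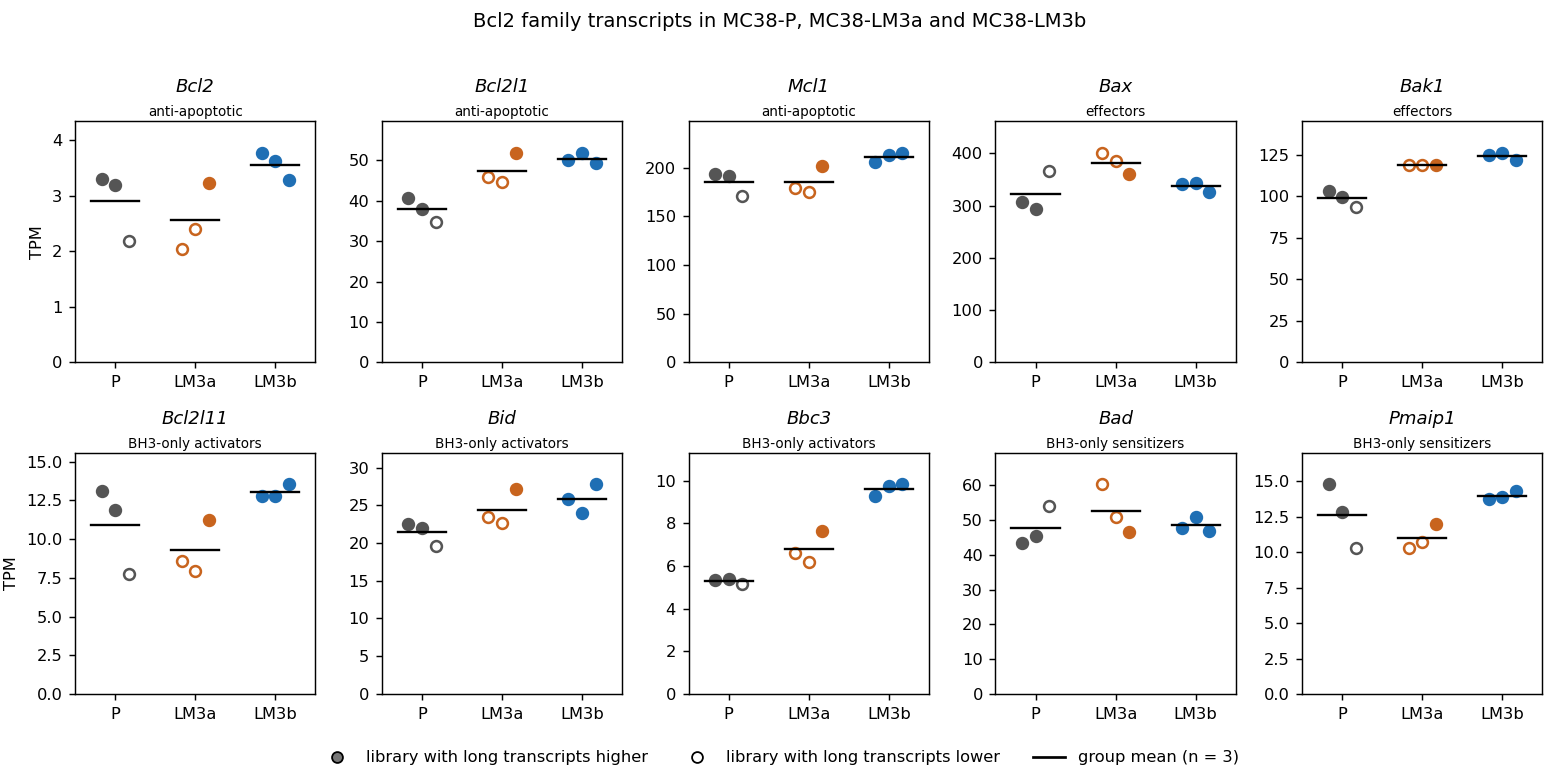
TPM (linear axes from 0) of the 10 members in each library of the 3 lines, with lines at the group means (n = 3); open points are the 3 libraries in which long transcripts were lower over all genes. The libraries of Bcl2l1 and Bak1 in both derivatives lie above all those of MC38-P, whereas open and filled points of Bcl2 and Bcl2l11 separate within MC38-P and MC38-LM3a.

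MC38-P replicate 3 and MC38-LM3a replicate 3 stood apart from the other replicates of their lines. This touches every result on MC38-LM3a and, through MC38-P replicate 3, every comparison of MC38-LM3b with MC38-P. Over 11096 genes, the deviation of MC38-P replicate 3 from its replicates fell with transcript length (Spearman rho = -0.506) and that of MC38-LM3a replicate 3 rose with it (rho = 0.523). When each library was set against the mean of all 9, long transcripts were lower in MC38-P replicate 3 and in MC38-LM3a replicates 1 and 2 (rho of -0.301, -0.437 and -0.433) and higher in the other 6 libraries (rho of 0.0519 to 0.31). Among these 6, the libraries of MC38-LM3b were at 0.295 to 0.31, and MC38-P replicates 1 and 2 at 0.139 and 0.0519. The members differ widely in length, from a median transcript length of 485 bases for Bbc3 and 801 for Bax to 2490 for Bcl2l11 and 5016 for Bcl2. In MC38-P replicate 3, the short Bax and Bad were 0.28 and 0.28 higher on the log2 scale than in its replicates, whereas Bcl2 and Bcl2l11 differed by -0.42 and -0.63. Values corrected for length and GC content are therefore given beside the deposited ones. What sets these libraries apart was not tested.

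**Figure D2:**
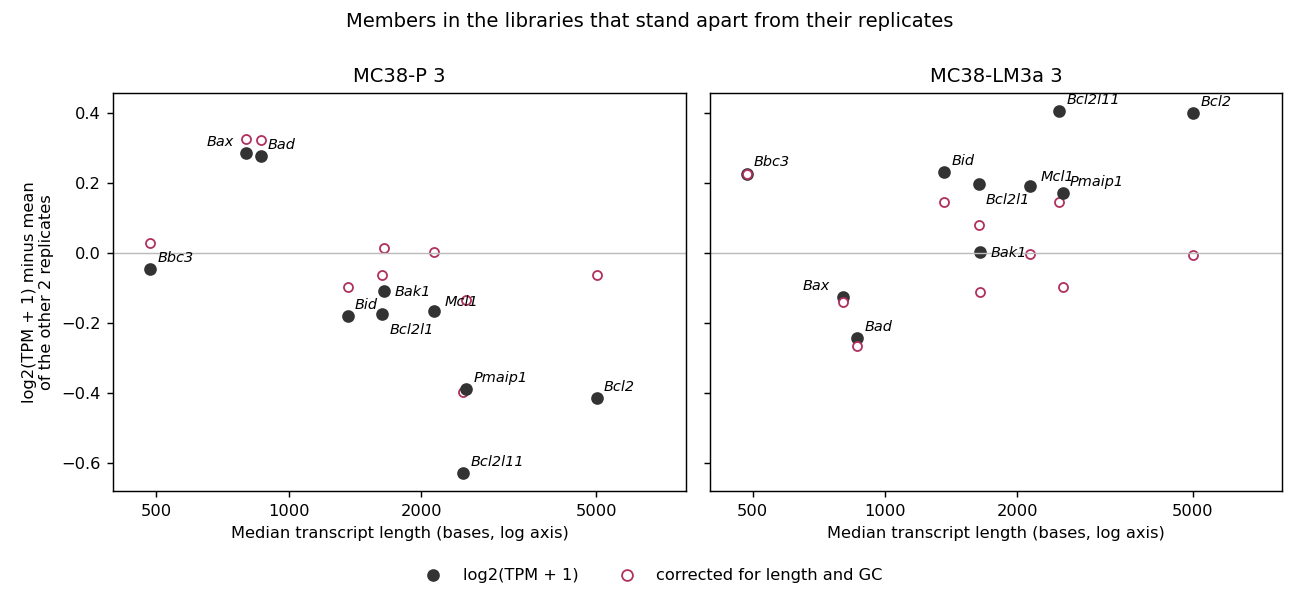
Difference of each member, on the log2(TPM + 1) scale, between 1 library and the mean of the other 2 replicates of its line, against median transcript length (log axis), for MC38-P 3 and MC38-LM3a 3. Filled points are the deposited values and open points the values corrected for length and GC; Bcl2 moves from -0.42 to -0.06 in MC38-P 3.

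In MC38-LM3a against MC38-P, 3 members were higher at an adjusted p under 0.05 by limma (Bcl2l1, Bax and Bak1), where 14.1% of all tested genes were. None was lower, where 13.8% were, and none was a DEG (a log2 fold change beyond 1 in either direction besides an adjusted p under 0.05), where 2.89% were. In MC38-LM3b against MC38-P, 3 members were higher (Bcl2l1, Bak1 and Bbc3), where 35.6% of all genes were, none was lower, where 11.2% were, and none was a DEG, where 3.93% were. A count of 3 of 10 is thus near the share of all genes in MC38-LM3b. The median log2 fold change of the 10 members was 0.16 for MC38-LM3a and 0.25 for MC38-LM3b, against -0.0002 and 0.21 over all genes. All libraries of MC38-LM3a were above all of MC38-P for 4 members (20.3% of all genes), those of MC38-LM3b for 5 (51.3% of all), and below for none (15.9% and 15.4% of all). At an unadjusted p under 0.05, 4 members and 4347 of the 11287 tested genes differed in MC38-LM3a, and 5 members and 6235 of all genes in MC38-LM3b. With both MC38-P replicate 3 and MC38-LM3a replicate 3 left out, which in MC38-LM3a against MC38-P sets libraries with opposite trends along transcript length against each other, the calls in MC38-LM3a became 5 higher and 4 lower (Bcl2, Mcl1, Bcl2l11 and Pmaip1), and 6 were higher in MC38-LM3b. Under that setting 2059 of all genes were higher and 5052 lower in MC38-LM3a, and 5178 were higher in MC38-LM3b. Both comparisons share the MC38-P libraries, so their results are not independent.

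With the values corrected for length and GC, 4 members were higher in MC38-LM3a (Bcl2l1, Bax, Bak1 and Bbc3; 24.5% of all genes) and 1 was lower (Pmaip1; 22.9% of all). In MC38-LM3b the same 3 members were higher as before the correction (27.7% of all) and none was lower (27.6% of all). The correction also centres the libraries, so that the median of all genes became 0.01 in both comparisons. The median of the members became 0.17 and 0.03 in turn.

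Among the protectors, Bcl2l1 rose in both derivatives. It was at 40.75, 38.04 and 34.78 TPM in the libraries of MC38-P, while MC38-LM3a had 45.79, 44.59 and 51.89 TPM and MC38-LM3b 50.13, 51.73 and 49.3 TPM. No derivative library fell within the range of MC38-P. The log2 fold change was 0.32 (SE 0.0856, limma adjusted p = 0.0186) for MC38-LM3a and 0.41 (SE 0.0856, adjusted p = 0.00352) for MC38-LM3b. After the correction it was 0.31 (adjusted p = 0.000419) and 0.27 (adjusted p = 0.000769). The rise in MC38-LM3b was 0.18 when each library was centred on its median gene (limma adjusted p = 0.0129). With quantile normalization it was 0.22 (limma adjusted p = 0.0043). The call in MC38-LM3a was lost with only the 2 groups in the model (adjusted p = 0.069), with the replicate block (0.0628) and without MC38-P replicate 2 (0.0578).

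Mcl1, the most abundant protector, was at 193.27, 191.81 and 171.34 TPM in MC38-P and at 178.7, 175.04 and 201.76 TPM in MC38-LM3a. The ranges of these lines overlapped, and the log2 difference was -0.0031 (95% confidence interval -0.16 to 0.16, adjusted p = 0.981). In MC38-LM3b it was at 205.82, 212.62 and 215.52 TPM, above every library of MC38-P, by 0.19 on the log2 scale (interval 0.03 to 0.35, adjusted p = 0.0516). After the correction that difference was 0.0045 (adjusted p = 0.934). Bcl2, the founding member of the family, was close to the filter on low values, at 3.31, 3.2 and 2.19 TPM in MC38-P, while MC38-LM3a had 2.04, 2.4 and 3.24 TPM and MC38-LM3b 3.78, 3.63 and 3.28 TPM. Its ranges overlapped between MC38-P and each derivative, and neither difference passed the test (log2 -0.13, adjusted p = 0.591, and 0.24, adjusted p = 0.232). After the correction these were -0.08 and -0.03.

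Of the effectors, Bak1 rose in both derivatives. It was at 102.84, 99.44 and 93.73 TPM in MC38-P, while MC38-LM3a had 118.67, 118.64 and 118.88 TPM and MC38-LM3b 124.87, 126.14 and 121.92 TPM. The libraries of each line formed a separate band, the narrowest in MC38-LM3a. The log2 fold change was 0.27 (SE 0.0582, adjusted p = 0.0064) for MC38-LM3a and 0.33 (SE 0.0582, adjusted p = 0.00128) for MC38-LM3b, and 0.30 (adjusted p = 0.000384) and 0.22 (adjusted p = 0.00232) after the correction. The rise in MC38-LM3b did not pass when each library was centred on its median gene (log2 0.11, adjusted p = 0.259).

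Bax was at 306.58, 294.32 and 366.08 TPM in MC38-P, while MC38-LM3a had 401.18, 384.41 and 359.82 TPM and MC38-LM3b 341.76, 342.2 and 326.37 TPM. MC38-P replicate 3 lay inside the range of MC38-LM3a and above every library of MC38-LM3b. The difference passed the test in MC38-LM3a (log2 0.25, SE 0.081, adjusted p = 0.0421) but not in MC38-LM3b (log2 0.07, interval -0.11 to 0.25, adjusted p = 0.492). In MC38-LM3a the call was kept in only 2 of the 9 fits that each left out 1 library, those without MC38-P replicate 3 and without MC38-LM3a replicate 3, with log2 values of 0.19 to 0.34 over the 9. In MC38-LM3b the 9 fits gave 0.0072 to 0.16 with no call, and leaving out both MC38-P replicate 3 and MC38-LM3a replicate 3 brought it to a call (0.16, adjusted p = 0.00344). The correction gave 0.29 (adjusted p = 0.0185) for MC38-LM3a and 0.03 (adjusted p = 0.76) for MC38-LM3b.

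Bbc3, the BH3-only gene known as a target of p53, showed the largest fold change of the 10 members in MC38-LM3b. It was at 5.35, 5.4 and 5.17 TPM in MC38-P, while MC38-LM3a had 6.63, 6.17 and 7.65 TPM and MC38-LM3b 9.29, 9.74 and 9.84 TPM. The 3 lines did not overlap, and each library of MC38-LM3b was above each of MC38-LM3a. In MC38-LM3b it rose by 0.75 on the log2 scale (SE 0.106, interval 0.52 to 0.99, adjusted p = 0.000339). In MC38-LM3a the difference was 0.31 (SE 0.106, adjusted p = 0.054), just outside the threshold. After the correction it was 0.86 in MC38-LM3b (adjusted p = 1.06e-05) and 0.49 in MC38-LM3a (adjusted p = 0.000497). Its level is low, so that the pseudocount of 1 understates these changes: with 0.1 they were 0.85 in MC38-LM3b (adjusted p = 0.00038) and 0.35 in MC38-LM3a (adjusted p = 0.0513). The rise in MC38-LM3b was smaller when each library was centred on its median gene (log2 0.53, limma adjusted p = 0.000345). With quantile normalization it was 0.48 (limma adjusted p = 0.000805).

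The other BH3-only members did not pass the test in either derivative. Bid, which caspase-8 cleaves to link death receptors to mitochondria, was at 22.56, 22.05 and 19.57 TPM in MC38-P and at 23.47, 22.62 and 27.18 TPM in MC38-LM3a (log2 0.18, adjusted p = 0.221). In MC38-LM3b it was at 25.8, 24 and 27.8 TPM (log2 0.26, adjusted p = 0.0551). All derivative libraries of Bid were above the range of MC38-P. Some alternatives brought Bid to a call as higher. In MC38-LM3a these were median centring (limma adjusted p = 0.0405) and the correction by the longest transcript (0.0497). In MC38-LM3b they included only the 2 groups in the model (limma adjusted p = 0.041). Leaving out both MC38-P replicate 3 and MC38-LM3a replicate 3 did so there too (0.0183). Bcl2l11 was at 13.13, 11.86 and 7.72 TPM in MC38-P, while MC38-LM3a had 8.59, 7.95 and 11.26 TPM and MC38-LM3b 12.81, 12.76 and 13.55 TPM. Its log2 differences were -0.20 (interval -0.59 to 0.20, adjusted p = 0.465) and 0.27 (interval -0.13 to 0.66, adjusted p = 0.234), and the low libraries of both lines were the 3 in which long transcripts were lower. Leaving out each library in turn gave -0.41 to -0.0581 for MC38-LM3a and 0.0582 to 0.41 for MC38-LM3b, with no call. After the correction the differences of Bcl2l11 were -0.22 (adjusted p = 0.112) and 0.03 (adjusted p = 0.832), and those of Bid were 0.17 and 0.16.

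Bad was at 43.43, 45.48 and 54.05 TPM in MC38-P, while MC38-LM3a had 60.27, 50.83 and 46.57 TPM and MC38-LM3b 47.75, 50.71 and 46.76 TPM. It overlapped between all lines (log2 0.14, adjusted p = 0.399, and 0.03, adjusted p = 0.845, and 0.17 and -0.01 after the correction). Pmaip1 was at 14.81, 12.85 and 10.29 TPM in MC38-P, while MC38-LM3a had 10.33, 10.73 and 11.98 TPM and MC38-LM3b 13.75, 13.91 and 14.3 TPM. The derivatives overlapped with MC38-P but not with each other. Its log2 difference from MC38-P was -0.17 (adjusted p = 0.357) for MC38-LM3a and 0.15 (adjusted p = 0.349) for MC38-LM3b. After the correction both were negative, at -0.23 (adjusted p = 0.0132) and -0.14 (adjusted p = 0.0789) in the same order.

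**Figure D3:**
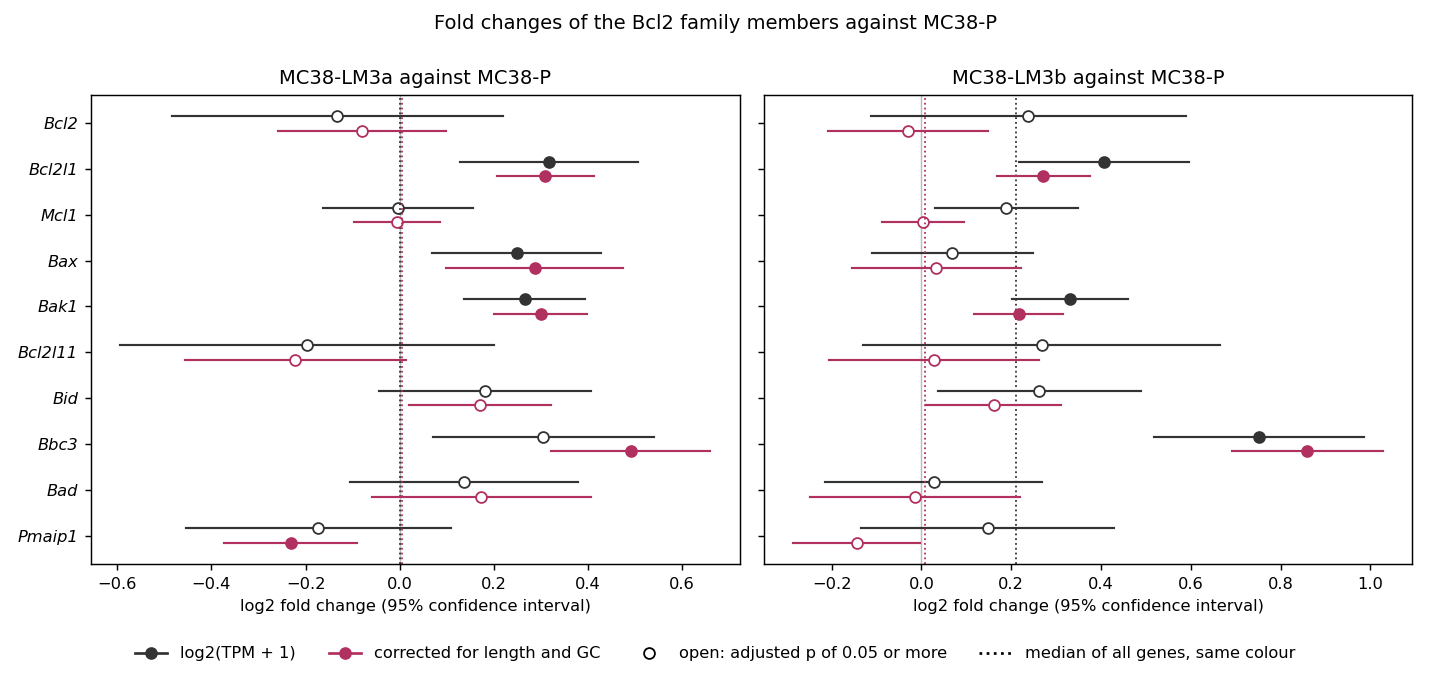
Log2 fold change of each member against MC38-P with its 95% confidence interval, in MC38-LM3a (left) and MC38-LM3b (right), from the deposited values (dark) and after correction for length and GC (red); filled points have an adjusted p under 0.05 and dotted lines mark the median of all genes. Bcl2l1 and Bak1 are filled in all 4 versions, and the dark median line in MC38-LM3b stands at 0.21.

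Because MC38-P replicate 3 and replicates 1 and 2 of MC38-LM3a shared the trend along transcript length, MC38-LM3a was also compared within the sets of libraries with a like trend, as values without a test. The sets were formed after the trend was seen, and each holds only 1 library of one of these lines. In the set with long transcripts higher, MC38-LM3a replicate 3 exceeded MC38-P replicates 1 and 2 by 0.39 for Bcl2l1, 0.23 for Bak1, 0.26 for Bax and 0.44 for Bbc3 on the log2 scale. In the set with long transcripts lower, MC38-LM3a replicates 1 and 2 exceeded MC38-P replicate 3 by 0.37, 0.34, 0.10 and 0.26 for the same genes. For Bid the differences were 0.27 and 0.225, for Bcl2 -0.005 and 0.0112, and for Mcl1 0.07 and 0.05. For Bcl2l11 they were -0.14 and 0.09, and for Pmaip1 -0.19 and 0.03. With the 3 libraries of MC38-LM3b and MC38-P replicates 1 and 2, all of the set with long transcripts higher, the differences were 0.35 for Bcl2l1, 0.295 for Bak1, 0.16 for Bax and 0.74 for Bbc3.

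Between the derivatives, no member passed the test, where 0.0532% of all genes did (0.108% after the correction, again with no member). At an unadjusted p under 0.05, 6 members and 4296 of all genes differed. Bbc3 had the smallest p of the members and was higher in MC38-LM3b by 0.45 on the log2 scale (interval 0.21 to 0.68, limma adjusted p = 0.119). Bcl2l11 was higher by 0.46, Bcl2 by 0.37, Pmaip1 by 0.32 and Mcl1 by 0.19, and the difference of Bax was -0.18 (adjusted p of 0.119 to 0.131). The median of all genes differed by 0.21 in the same direction. After the correction the differences of Bbc3, Bcl2l11 and Bax were 0.37, 0.25 and -0.25, and those of Bcl2, Mcl1 and Pmaip1 were 0.05, 0.01 and 0.09. Leaving out MC38-LM3a replicate 3 brought 5 members to a call as higher in MC38-LM3b and 1, Bax, to a call as lower, where 5874 of all genes became higher and 477 lower.

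Summed over the members, the protectors were at 226 ± 15.7 TPM for MC38-P, 235 ± 19 TPM for MC38-LM3a and 265 ± 4.8 TPM for MC38-LM3b (SD, n = 3). The death-promoting members summed to 519 ± 33.8, 605 ± 23.1 and 572 ± 10.1 TPM. The 8 other family members with a test are not in these sums. Among them, Bcl2l2 had means of 28.9, 31.6 and 38.7 TPM in the same order of lines, and Bok 72.3, 43.3 and 40.6 TPM. Both were named after their values were seen. The ratio of protectors to death-promoting members was 0.467, 0.474 and 0.374 in MC38-P. It was 0.36, 0.369 and 0.44 in MC38-LM3a, and MC38-LM3b had 0.451, 0.462 and 0.478. Each derivative overlapped with MC38-P but not with the other derivative, and the 3 lowest ratios came from the libraries in which long transcripts were lower. The mean log2 ratio differed from MC38-P by -0.17 for MC38-LM3a and by 0.09 for MC38-LM3b, and was 0.26 higher in MC38-LM3b than in MC38-LM3a, as values without a test. After the correction the ratio ranged over 0.406 to 0.484 for the parental line, while MC38-LM3a had 0.376 to 0.418 and MC38-LM3b 0.431 to 0.458, so that the derivatives still did not overlap and the same 3 libraries were the lowest. The log2 differences were then -0.20 and -0.03 from MC38-P and 0.18 between the derivatives. Mcl1 made up most of the protectors (82% ± 0.487 in MC38-P) and Bax most of the death-promoting transcripts (62% ± 3.29), so the ratio reflects mainly these genes. Without Mcl1 in the sum, the log2 ratio of MC38-LM3a to MC38-P moved from -0.17 to 0.07.

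Within the protectors, the ratio of Mcl1 to Bcl2l1 was lower in both derivatives. Mcl1 was 4.74, 5.04 and 4.93 times as abundant as Bcl2l1 in MC38-P. The ratio was 3.9, 3.93 and 3.89 in MC38-LM3a, and MC38-LM3b had 4.11, 4.11 and 4.37. The derivatives lay below every library of MC38-P, and the libraries with long transcripts lower did not stand out. This ratio was chosen after its values were seen and was not tested. Bcl2l1 relative to Bax was 0.119 ± 0.0209 for MC38-P, 0.125 ± 0.0169 for MC38-LM3a and 0.15 ± 0.00256 for MC38-LM3b. Bax relative to Bak1 was 3.28 ± 0.54, 3.22 ± 0.178 and 2.71 ± 0.0302. The BH3-only members together were at 97.9 ± 1.26, 104 ± 5.52 and 111 ± 1.44 TPM.

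**Figure D4:**
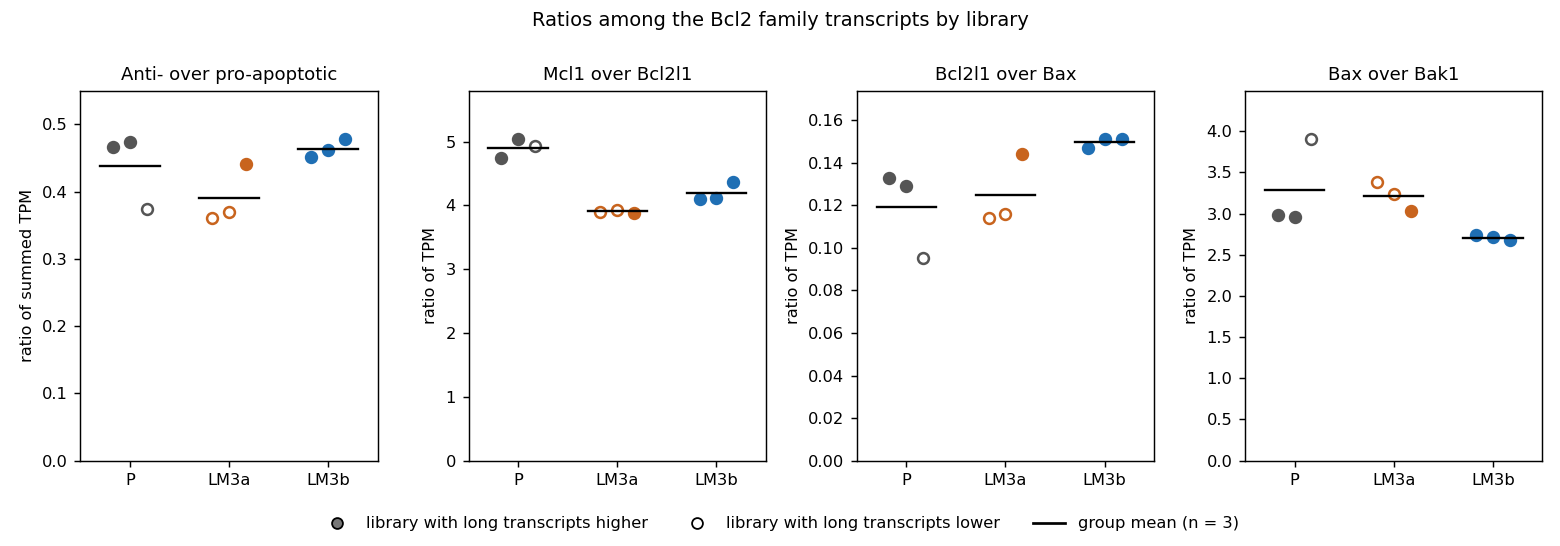
Ratios of summed or single TPM in each library (linear axes from 0), with lines at the group means (n = 3); open points are the libraries with long transcripts lower. The ratio of Mcl1 to Bcl2l1 is 4.74 or more in MC38-P and 4.37 or less in the derivatives, and the 3 open points are the lowest in the ratio of protectors to death-promoting members.

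Other genes of the pathway were taken from lists, and each count is of the members that passed the filter. The other members of the Bcl2 family numbered 8 with a test, of which 2 rose and 2 fell in MC38-LM3a and 5 rose and 1 fell in MC38-LM3b. Bnip3, a BH3-containing mitophagy receptor induced by hypoxia, was at 46.17 to 54.43 TPM in MC38-P, while MC38-LM3a had 84.95 to 89.69 TPM and MC38-LM3b 87.43 to 90.86 TPM. It rose by 0.83 (adjusted p = 2.71e-05) and 0.84 (adjusted p = 1.88e-05) on the log2 scale. Bok, an effector relative of Bax and Bak1, moved the other way than Bak1. It was at 69.56 to 77.45 TPM in MC38-P, while MC38-LM3a had 39.29 to 46.93 TPM and MC38-LM3b 39.85 to 41.23 TPM, and fell by 0.73 (adjusted p = 0.00012) and 0.82 (adjusted p = 4.45e-05). The BH3-only gene Bmf fell by 0.83 in MC38-LM3a (adjusted p = 0.00636), and its difference was -0.43 in MC38-LM3b (adjusted p = 0.0707). After the correction Bmf passed in both, at -0.77 (adjusted p = 0.000536) and -0.66 (adjusted p = 0.00116). Bok and Bmf were named after their values were seen.

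Downstream of the pore, 6 genes of the apoptosome and the caspases were tested: 2 rose and 1 fell in MC38-LM3a, and 4 rose and 1 fell in MC38-LM3b. Apaf1, the scaffold that binds cytochrome c, was at 15.06 to 21.8 TPM in MC38-P, while MC38-LM3a had 22.24 to 32.29 TPM and MC38-LM3b 31.7 to 33.02 TPM. Its rise of 0.74 in MC38-LM3b passed (adjusted p = 0.00432), and in MC38-LM3a the difference was 0.39 (adjusted p = 0.106). After the correction Apaf1 passed in both, at 0.44 (adjusted p = 0.000115) and 0.47 (adjusted p = 5.82e-05). Casp9 was higher by 0.41 in MC38-LM3a (adjusted p = 0.0297) and by 0.70 in MC38-LM3b (adjusted p = 0.00129). Casp6 was higher by 0.56 in MC38-LM3a (adjusted p = 0.000836) and by 0.56 in MC38-LM3b (adjusted p = 0.000594). Cycs, which encodes cytochrome c itself, fell by 0.33 (adjusted p = 0.00464, MC38-LM3a) and by 0.29 (adjusted p = 0.00614, MC38-LM3b). These caspases and Cycs were chosen after their values were seen.

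Among 7 inhibitors of apoptosis and their antagonists, 1 rose and 1 fell in MC38-LM3a and 2 rose in MC38-LM3b. Birc3 (cIAP2), a ubiquitin ligase of TNF signalling, rose by 0.53 (adjusted p = 0.00981) and 0.71 (adjusted p = 0.00142). Of 7 partners at the outer membrane, none passed in MC38-LM3a and 2 were higher in MC38-LM3b, where after the correction none was higher and 2 others, Vdac2 and Mtch2, were lower (log2 -0.16 and -0.28), both named after their values were seen. Dnm1l, the fission GTPase, was higher by 0.39 there (adjusted p = 0.0284), and by 0.10 after the correction (adjusted p = 0.115). The death receptor arm that cleaves Bid had 7 tested genes, none called in MC38-LM3a and 5 higher in MC38-LM3b. Cflar, the decoy of caspase-8, was at 10.52 to 16.88 TPM in MC38-P, while MC38-LM3a had 15.73 to 24.31 TPM and MC38-LM3b 28.71 to 30.1 TPM. It was the only DEG of all 7 lists, with a log2 fold change of 1.10 in MC38-LM3b (adjusted p = 0.000779), which became 0.84 after the correction (adjusted p = 7.56e-05), under the DEG limit of 1.

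The regulators of the BH3-only genes had 9 tested members: 1 rose and 1 fell in MC38-LM3a, and 3 rose and 1 fell in MC38-LM3b. Atf4, a transcription factor of the integrated stress response, was at 374.17 to 430.92 TPM in MC38-P, while MC38-LM3a had 227.9 to 240.74 TPM and MC38-LM3b 254.23 to 264.48 TPM. It fell in both (log2 -0.79, adjusted p = 9.8e-06, and -0.64, adjusted p = 3.47e-05). Mdm2, a p53 target that degrades p53, rose by 0.45 (adjusted p = 0.0101) and 0.77 (adjusted p = 0.000329), while the log2 differences of Trp53 were -0.07 (adjusted p = 0.547) and -0.02 (adjusted p = 0.861). After the correction Mdm2 was higher by 0.44 and 0.51, and Trp53 was at -0.08 (adjusted p = 0.215) and -0.17 (adjusted p = 0.0173), the latter a call as lower. Of 11 regulators of the Mcl1 and Bad proteins, 1 fell in MC38-LM3a, and 1 rose and 1 fell in MC38-LM3b. Ywhaz, a 14-3-3 protein that holds phosphorylated Bad in the cytosol, fell by 0.61 (adjusted p = 0.00194) and by 0.41 (adjusted p = 0.012). Mdm2 and Trp53 were chosen after their values were seen. After the correction, the counts in MC38-LM3a became 4 higher and 1 lower for the apoptosome and caspases, 3 higher for the death receptor arm, 1 higher and 2 lower for the regulators of the BH3-only genes, and 1 higher and 5 lower for the regulators of Mcl1 and Bad. In MC38-LM3b they became 4 higher and 2 lower for the other Bcl2 family, 4 and 1 for the apoptosome and caspases, 2 and 2 for the inhibitors of apoptosis, 4 and none for the death receptor arm, 2 and 2 for the regulators of the BH3-only genes, and 1 and 2 for the regulators of Mcl1 and Bad. Of all genes, 14.1% were higher and 13.8% lower in MC38-LM3a, and 35.6% and 11.2% in MC38-LM3b. After the correction these shares were 24.5% and 22.9% for MC38-LM3a, and 27.7% and 27.6% for MC38-LM3b.

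**Figure D5:**
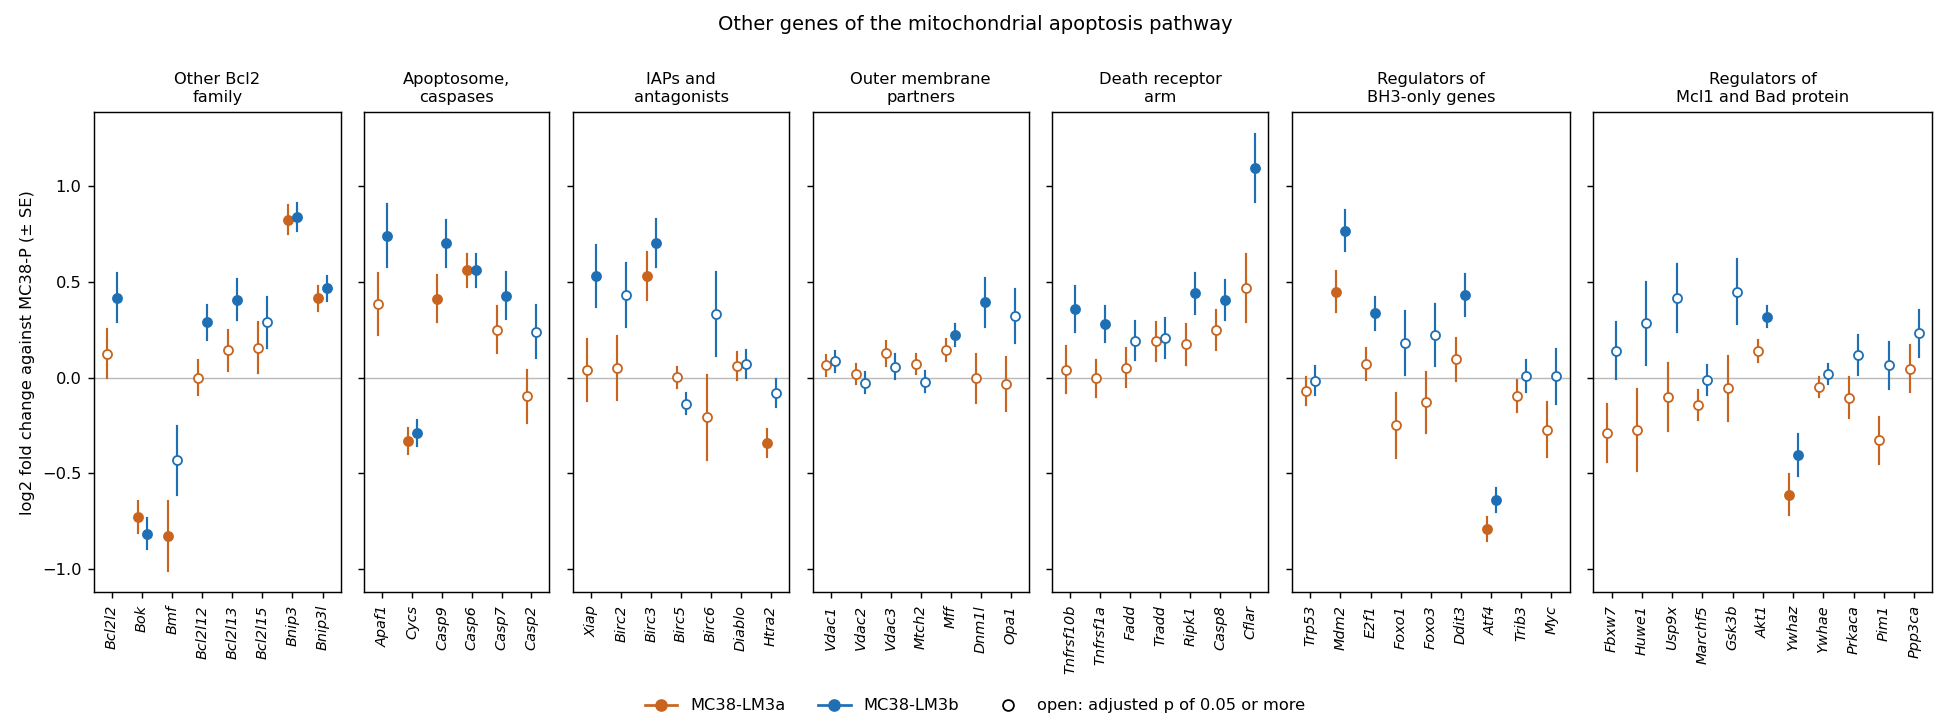
Log2 fold change (± SE) against MC38-P of the tested genes of 7 lists around the Bcl2 family, in MC38-LM3a (orange) and MC38-LM3b (blue); filled points have an adjusted p under 0.05. Bnip3 is high and Bok and Atf4 are low in both derivatives, and Cflar reaches 1.10 in MC38-LM3b.

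Over the 9 libraries, the genes whose log2(TPM + 1) was most like that of Bbc3 were Clstn3 (Pearson r = 0.996), Cenpb (r = 0.992) and Sec1 (r = 0.99). Clstn3 was at a mean of 0.0467 TPM in MC38-P, while MC38-LM3a had 0.62 TPM and MC38-LM3b 2.18 TPM. The most like Bcl2l1 were Prcp (r = 0.996), Galnt11 (r = 0.996) and Dync1i2 (r = 0.993), and Prcp had means of 13.3, 17.9 and 19.5 TPM. These values describe 9 points that fall into 3 lines, and the genes were picked as the highest of all those tested.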

How the data were processed

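Poly(A) RNA of 9 libraries, 3 for the parental line and 3 for each derivative, was fragmented, primed with random hexamers and sequenced on the DNBSEQ platform. The authors deposited TPM for 16399 genes per library, which sum to 1000000. The submitters' processing notes name HISAT and GRCm39, and the quantification tool is not given in the sources used here. The files hold no counts, so depth is unknown and no interval for counting error is given. The study calls its replicates biological, but whether they were separate cultures or passages is not stated, so p-values measure the spread between these samples.

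Groups came from the sample titles. The test was limma 3.58.1 (R 4.3.3) with a variance trend, run on log2(TPM + 1) in a single model of the 9 libraries. Genes below 1 TPM in more than 6 libraries were left out, and Benjamini-Hochberg adjustment covered the 11287 others. All tests were two-sided, and adjusted p-values in the text are from limma. Fold changes are on the log2(TPM + 1) scale, which understates changes of low genes. Corrected values came from a loess fit of span 0.3 per library on the median transcript length and GC content in GENCODE M21, known for 98.3% of the tested genes. The steps were tested on simulated data. For limma the simulated noise was independent between genes and libraries, so false calls under the trend along transcript length were not tested. Genes of the pathway were named if they were DEGs against MC38-P, or else as the called gene with the largest change of their list. The 3 genes most like a member were named for Bbc3 and Bcl2l1. The members, lists and rules were chosen with earlier results of these data known. Alternatives changed the pseudocount to 0.1, the filter, the scaling, the libraries in the model and a block for replicate number, and left out each library in turn. Count-based tests were not possible. A gene of the apoptosome and caspase list is not reported here and is left out of that list's counts.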

Additional observations from a re-analysis of the deposited data

Results flagged for a closer look

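Pmaip1, the BH3-only gene known as Noxa, had every library of MC38-LM3a below, and every one of MC38-LM3b above, the parental mean of 12.65 TPM (means of 11.01 and 13.99 TPM in turn). Both derivatives overlapped with MC38-P, and neither difference from it passed the test (log2 -0.17, limma adjusted p = 0.357, and 0.15, adjusted p = 0.349). After the correction for length and GC both were negative, at -0.23 (adjusted p = 0.0132) and -0.14 (adjusted p = 0.0789). The libraries of MC38-LM3a and MC38-LM3b did not overlap, and the difference between them was 0.32 on the log2 scale (limma adjusted p = 0.119), which did not pass the test. After the correction it was 0.09.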

How the results depend on the processing

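Bbc3 in MC38-LM3b and Bcl2l1 in MC38-LM3b were called as higher under every alternative, and Bak1 in MC38-LM3a too. Bax in MC38-LM3a lost its call with no filter (adjusted p = 0.0669), median centring (0.212), quantile normalization (0.0546), only the 2 groups in the model (0.106) and the replicate block (0.102), and Bcl2l1 in MC38-LM3a with only the 2 groups (0.069), the replicate block (0.0628) and without MC38-P replicate 2. The sample titles do not say whether same-numbered libraries were handled together. The deviations of same-numbered libraries of MC38-P and MC38-LM3a had correlations of -0.336, -0.165 and -0.662. These correlations were small and positive for MC38-P with MC38-LM3b (0.0641, 0.0582 and 0.0353) and for MC38-LM3a with MC38-LM3b (0.0573, 0.0748 and 0.0678). They cannot decide whether the samples are paired, since MC38-P replicate 3 and MC38-LM3a replicate 3 deviate along transcript length in opposite directions.

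In MC38-LM3a against MC38-P, members called higher numbered 1 with only the 2 groups, 1 with the replicate block, 5 with the correction by the longest transcript and 5 with both MC38-P replicate 3 and MC38-LM3a replicate 3 left out. Members called lower numbered 1 with each correction (with the block, and by the longest transcript, too) and 4 with those libraries left out. Genes called higher in all were 2428 (quantile), 2722 (correction), 1036 (2 groups), 1101 (replicate block), 2411 (block with correction), 2976 (longest transcript) and 2059 (both left out). Those called lower were 2539 (correction), 2290 (block with correction), 2829 (longest transcript) and 5052 (both left out). Mcl1 changed sign to 0.014 (quantile) and 0.026 (longest transcript). The log2 ratio of protectors to death-promoting members moved to 0.073 without Mcl1, and was -0.0492 with mean log2 values in place of sums.

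In MC38-LM3b against MC38-P, members called higher numbered 5 with only the 2 groups and 6 with both libraries left out. Of all genes, 4760 were called higher with only the 2 groups, 5178 with both left out and 2586 with median centring. Those called lower were 2981 (median centring), 2767 (quantile), 3063 (correction), 2783 (block with correction), 3225 (longest transcript) and 2122 (both left out). Signs reversed with median centring for Mcl1 (-0.034), Bax (-0.15), Bad (-0.20) and Pmaip1 (-0.075), with quantile normalization for Bcl2l11 (-0.0004), Bad (-0.15) and Pmaip1 (-0.11), with the correction, with or without the replicate block, for Bcl2 (-0.0295), Bad (-0.0136) and Pmaip1 (-0.14), and by the longest transcript for Bcl2 (-0.0523), Mcl1 (-0.0031) and Pmaip1 (-0.12).

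In MC38-LM3b against MC38-LM3a, 7 members were called higher and 2 lower with both libraries left out. Genes called higher were 1 (pseudocount 0.1), 2 (replicate block), 10 (longest transcript) and 7266 (both left out), and lower 1 (pseudocount), 7 (median centring), 6 (quantile), 7 (correction), 0 (2 groups), 0 (replicate block), 13 (longest transcript) and 759 (both left out). Signs reversed with median centring for Bcl2l1 (-0.13), Mcl1 (-0.0299), Bak1 (-0.16) and Bid (-0.14), with quantile normalization for Bcl2l1 (-0.10), Bak1 (-0.0518) and Bid (-0.14), with the correction, with or without the block, for Bcl2l1 (-0.0375), Bak1 (-0.083) and Bid (-0.0094), and by the longest transcript for Bcl2l1 (-0.0714), Mcl1 (-0.0294), Bak1 (-0.105) and Bid (-0.0328). The log2 ratio moved to 0.0903 (longest transcript) and 0.0613 (mean log2 values). The cause of these shifts was not tested.

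Leaving out each library in turn gave 1 to 3 members called higher in MC38-LM3a, 3 to 5 in MC38-LM3b and 0 to 5 between the derivatives, with 0 to 1 lower. All genes called higher ranged over 1123 to 1599, 2747 to 5082 and 0 to 5874, and lower over 960 to 2612, 907 to 1555 and 0 to 477. The log2 ratio ranged over -0.28 to -0.11, -0.0205 to 0.15 and 0.20 to 0.35. Mcl1 in MC38-LM3a ranged from -0.0661 to 0.0358 and Bad in MC38-LM3b from -0.0348 to 0.12. Using the longest transcript and leaving out both libraries were chosen after seeing the data. As the values are TPM, the depth is unknown, which matters most for Bcl2 and Bbc3.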
